A study of Mus musculus with 6 samples.

Results

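Genes of the transforming growth factor-beta (TGF-beta) pathway were followed in the immune cells of mouse tumours: the ligand gene Tgfb1, the integrin genes Itgav and Itgb8, the receptor genes Tgfbr1 and Tgfbr2, the signal transducer Smad3, and the negative regulators Smad7, Ski, Skil and Tgif1. They were chosen by symbol as a list of 10, and all 10 were found among the 32285 genes of the deposited tables. Cells came from female C57BL/6J mice, 10-12 weeks old, carrying tumours of a breast cancer line that metastasises to the brain. The line had been grown in the brain (BrM, 3 libraries) or in the mammary fat pad (MFP, 3 libraries). CD45-positive, RedDot1-positive, DAPI-negative cells were sorted, and their RNA was counted as unique molecular identifiers (UMIs) with 10x Genomics 3' chemistry, version 3. Whether the 3 libraries of one tumour site are 3 animals is not stated in the labels; p-values then measure only the spread between these libraries, which may be technical. The design sets the immune cells of tumours in the brain against those of tumours of the same line outside it.

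TGF-beta is secreted as a latent complex, in which the mature cytokine is held by its own propeptide. Integrins that pair the alpha-v chain (Itgav) with a partner such as beta-8 (Itgb8) bind an arginine-glycine-aspartate (RGD) site of the propeptide and free the cytokine. The active ligand binds the type II receptor (Tgfbr2), which recruits and phosphorylates the type I receptor (Tgfbr1), and this in turn phosphorylates SMAD2 and SMAD3. Smad7 and Skil are induced by the signal and restrain it, Smad7 at the receptor and Skil, like its relative Ski, at the SMAD complex in the nucleus, where Tgif1 also acts as a corepressor. In tumours the pathway is best known for holding back T and NK cells and for maintaining regulatory T cells. In the brain it is needed for microglia to keep their identity.

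The binding site that links the ligand to the integrin chains is shown because Tgfb1 and the pair Itgav and Itgb8 were highest in different cell classes here. The 45 bases around the RGD codons are given for Tgfb1 and for Tgfb3, read from GENCODE M21 transcripts on GRCm38, 5′ to 3′, with the RGD codons in capitals.
Tgfb1: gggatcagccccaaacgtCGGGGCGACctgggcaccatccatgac
Tgfb3: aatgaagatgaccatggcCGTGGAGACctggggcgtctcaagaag
In Tgfb1 (plus strand of chromosome 7, gene at chr7:25687002-25705077) these are codons 244 to 246 of 390, in exon 5 at chr7:25697142-25697150, and the stretch begins in exon 4. In Tgfb3 they are codons 261 to 263 of 412, in exon 5 on the minus strand (chr12:86062147-86062191 for the stretch). The longest reading frames of the Tgfb2 transcripts held 0 such codon runs.

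The libraries held 7083 to 8986 barcodes and 50692794 to 70944735 UMIs. After filtering, 46891 cells remained, of which 31257 (66.7%) fell into 14 classes by the markers they expressed. Every class showed all of its own markers, which is no separate check because cells were gated on them. For CD4 conventional T cells the list was that of T cells in general. Some lists were shared between classes. The macrophage list summed to 40420 UMIs per 1000000 in microglia and 25400 in macrophages. The CD8 list summed to 1082 in plasmacytoid dendritic cells and 1113 in CD8 T cells, and the monocyte list to 6511 in plasmacytoid dendritic cells. Lymphoid classes were found in every library, whereas myeloid classes made up 45.8% and 40% of kept cells in BrM 2 and BrM 3 and 56.2% in MFP 3, against 2.31% in BrM 1, 1.69% in MFP 1 and 0.625% in MFP 2. The 3 myeloid-poor libraries also had the lowest UMI totals. Pairs of libraries shared 10 to 39 cell barcodes, at most 0.476% of the smaller library. Fewer cells of a kind within a gate and less RNA per cell cannot be told apart in the summed levels. Levels are UMIs per 1000000 UMIs of a class in a library (CPM), and only libraries with at least 20 cells of a class were used. Because 3' UMIs are not scaled to transcript length, levels are compared between classes and sites, not between genes.

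Each pathway gene had its own distribution over the 14 classes. Tgfb1 was highest in NK cells, Itgav and Itgb8 in regulatory T cells (Treg), Tgfbr2 in microglia, Skil and Tgif1 in neutrophils, and Smad7 in T and NK cells. In 9 contrasts between classes, with library as a term, edgeR's quasi-likelihood test called 48 of 90 gene-by-contrast pairs at an adjusted p under 0.05, beside 38.8% of all gene-by-contrast pairs. The map of mean levels shows this division of ligand, activator, receptor and inhibitor genes among the cells.

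**Figure D1:**
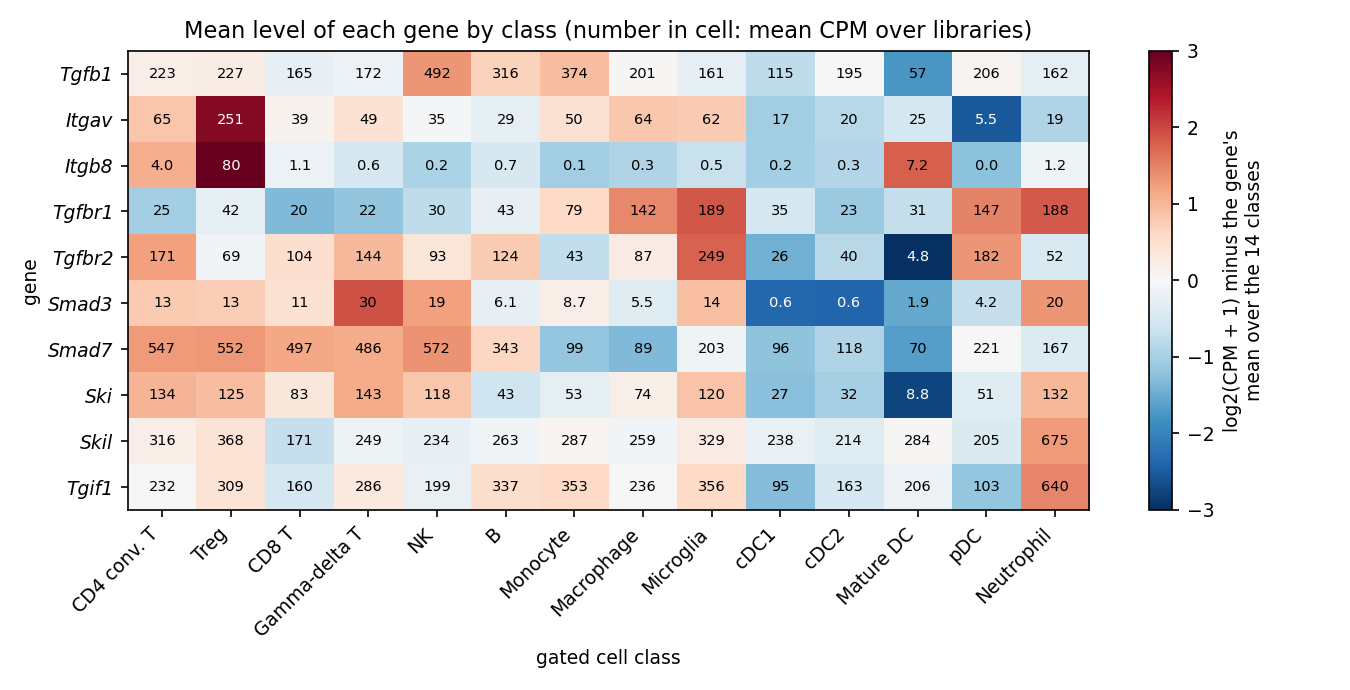
Mean level of each gene (rows) in each gated class (columns). Colour is log2(CPM + 1) minus the gene's mean over the 14 classes, and the number is the mean CPM over libraries. Itgav and Itgb8 stand out in Treg (251 and 80.2 CPM), Tgfb1 in NK cells (492 CPM), and Skil and Tgif1 in neutrophils (675 and 640.02 CPM).

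Tgfb1, the ligand, had its highest level in NK cells, at 492 CPM ± 80.2 (SD, n = 6 libraries). NK cells held 492, 428 and 375 CPM in the BrM libraries, in their order, against 599, 522 and 536 CPM in the MFP libraries. Monocytes followed at 374 CPM ± 66.5, a gap wider than the SD of either class, and then B cells at 316 CPM ± 101, which overlapped with monocytes. Treg (227 CPM), CD4 conventional T cells (223), plasmacytoid dendritic cells (206.5), macrophages (201), cDC2 (195), gamma-delta T cells (172), CD8 T cells (165), neutrophils (162) and microglia (161) lay within the spread of their neighbours in that order. The lowest levels were in cDC1, the cross-presenting dendritic cells, at 115 CPM ± 23.0 (n = 3), and in mature dendritic cells at 57.2 CPM ± 5.63 (n = 3).

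Between classes Tgfb1 was lower in CD8 T cells than in NK cells (log2 fold change -1.50, SE 0.11, edgeR adjusted p = 7.7e-18; 40.3% of all 11223 genes were called in that contrast). It was lower in macrophages than in monocytes by -0.89 on the log2 scale (SE 0.12, edgeR adjusted p = 2.2e-08), where 35.6% of genes were called. In mature dendritic cells it was lower than in cDC2 (log2 fold change -1.51, SE 0.19), and in cDC1 likewise (-0.71, SE 0.17), a call that was lost without BrM 2 (-0.58, edgeR adjusted p = 0.0883) and in the MFP libraries alone (-0.17). These contrasts called 39.6% and 16.6% of genes. In B cells it was higher than in CD4 conventional T cells (0.58, SE 0.12), a contrast that called 43.7% of genes and in which Ski (-1.65, SE 0.16) and Itgav (-1.17, SE 0.26) were lower in B cells.

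Itgb8, which encodes the integrin beta-8 chain, was almost restricted to Treg among the 14 classes. Itgb8 lies on the minus strand at chr12:119158022-119238802 and Itgav on the plus strand at chr2:83724397-83806916 (GRCm38). Among Treg libraries Itgb8 ranged from 33.0 CPM in BrM 3 to 166 CPM in MFP 3. Every Treg library lay far above the other classes, whose mean levels were 7.16 CPM in mature dendritic cells, 3.97 CPM in CD4 conventional T cells and at most 1.16 CPM in the other 11 classes. In UMIs, 385 were counted in Treg, 55 in CD4 conventional T cells, 31 in mature dendritic cells and 47 in macrophages, although the macrophage sums were much deeper. Plasmacytoid dendritic cells held 0 Itgb8 UMIs in each of their 3 libraries. CD8 T cells had 62 Itgb8 UMIs and NK cells 12 (log2 fold change 1.97, SE 0.50). Mature dendritic cells had 31 and cDC2 had 1, a difference that passed the edgeR test (adjusted p = 7.7e-06). Both contrasts rest on levels near the floor. The means were 1.06 CPM in CD8 T cells and 0.22 CPM in NK cells, where Itgb8 was too low to be tested between sites. It entered the fit over all classes through classes with higher levels. The lowest mature dendritic cell library was at 0 CPM.

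Itgav, the alpha-v partner of that chain, was also highest in Treg, but it was counted in all 14 classes. Its Treg level ranged from 158 CPM in BrM 3 to 364 CPM in MFP 2. The next class, CD4 conventional T cells, had 65.3 CPM ± 19.8 (n = 6), below every Treg library. Macrophages had 64.3 CPM, microglia 61.6 CPM and plasmacytoid dendritic cells 5.49 CPM.

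Treg exceeded CD4 conventional T cells in both integrin genes and had less of the type II receptor transcript. The log2 fold change was 4.16 for Itgb8 (SE 0.27, edgeR adjusted p = 1e-19), 1.85 for Itgav (SE 0.17, edgeR adjusted p = 1.8e-12) and -1.45 for Tgfbr2 (SE 0.15, edgeR adjusted p = 5.1e-12). The other 7 genes did not pass, in a contrast that called 23.7% of all genes. Each of the 3 calls was kept under all 13 alternatives run.

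From a list of 50 other pathway genes, 43 were tested in this contrast, 4 were higher in Treg and 9 lower. The largest difference was in Lrrc32, which encodes GARP, the surface anchor that holds latent TGF-beta on Treg. Lrrc32 had 223 UMIs in BrM Treg and 236 in MFP Treg, at 58.4 to 165 CPM, and 1 and 4 UMIs in CD4 conventional T cells of the 2 sites (fitted log2 fold change 7.79, SE 0.37). Tgfbr3, which encodes betaglycan, a co-receptor that presents ligand to the type II receptor, was at 0 to 2.40 CPM in Treg and 13.8 to 38.4 CPM in CD4 conventional T cells (-4.06, SE 0.41). Acvr2a, an activin type II receptor gene, was also lower in Treg (-2.29, SE 0.39).

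Of the genes that were not members or class markers, those whose class means followed Itgb8 most closely were Tnfrsf4 (Pearson r = 0.909), Ikzf4 (0.904) and Sdf4 (0.849). For Itgav they were Maf (0.849), Il10 (0.848) and Tstd3 (0.844). The measure was taken over 14 class means of log2(CPM + 1) among 8129 genes, and the classes share their libraries.

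The receptor genes were distributed differently from each other. Tgfbr1, the type I receptor gene, was highest in microglia (189 CPM, n = 2), neutrophils (188 CPM), plasmacytoid dendritic cells (147 CPM) and macrophages (142 CPM), and no gap among these exceeded the spread. No T or NK class had a mean above 41.8 CPM. In the mean of monocytes, macrophages, cDC1 and cDC2 against the mean of CD4 conventional T, CD8 T and NK cells, Tgfbr1 was higher (log2 fold change 1.30, SE 0.13, edgeR adjusted p = 3.2e-13) and Tgfbr2 lower (-1.19, SE 0.09, edgeR adjusted p = 2.7e-18). That contrast called 71.6% of all genes, so most genes differed between these cells. It averages classes that were not alike. Mean Tgfbr1 was 142 CPM in macrophages and 78.7 CPM in monocytes, but 35.4 CPM in cDC1 and 23.2 CPM in cDC2. The cDC2 mean was below those of NK cells and CD4 conventional T cells (24.8 CPM) and above that of CD8 T cells. Mean Tgfbr2 in macrophages (86.6 CPM) was near that of NK cells (93.1 CPM), while monocytes, cDC1 and cDC2 were lower.

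Tgfbr2 was highest in microglia, at 248 and 251 CPM in BrM 2 and BrM 3. Plasmacytoid dendritic cells (182 CPM ± 13.4) and CD4 conventional T cells (171 CPM ± 35.5) followed. Mature dendritic cells, the migratory CCR7-positive state, had 6.56, 7.92 and 0 CPM in BrM 2, BrM 3 and MFP 3, 21 UMIs in all, against 32.0 to 51.1 CPM in cDC2 (log2 fold change -2.39, SE 0.34, edgeR adjusted p = 3.5e-08). Mature dendritic cells also had less Ski than cDC2 (-1.49, SE 0.30) and more Skil (0.67, SE 0.18). The Skil call was lost under 2 of 13 alternatives, among them the fit without BrM 3 (0.61, edgeR adjusted p = 0.0673). Macrophages exceeded monocytes in both receptor genes, by 0.92 for Tgfbr1 (SE 0.18) and 1.09 for Tgfbr2 (SE 0.16).

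Smad3, the transducer, was sparsely counted. Its highest mean was in gamma-delta T cells, at 30.4 CPM ± 15.0 (n = 5), and no 2 neighbouring classes in its order differed by more than their spread. It was higher in gamma-delta than in CD8 T cells (log2 fold change 1.19, SE 0.25, edgeR adjusted p = 7.7e-05), together with Ski (0.59, SE 0.13) and Tgif1 (0.60, SE 0.19), in a contrast that called 32% of genes. In cDC1 and cDC2 only 4 and 3 Smad3 UMIs were counted. Relative to NK cells, CD8 T cells had less Smad3 (-0.81, SE 0.19), Tgfbr1 (-0.53, SE 0.17), Ski (-0.44, SE 0.11) and Skil (-0.37, SE 0.13). The Skil call was lost under 4 of 13 alternatives. Among them were the fits without BrM 3 (-0.39, edgeR adjusted p = 0.0544) and without MFP 1 (-0.33, edgeR adjusted p = 0.106).

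Among the negative regulators, Smad7 separated lymphocytes from myeloid cells. The T and NK classes had mean levels of 486.5 to 572 CPM, B cells 343 CPM, and macrophages 89.1 CPM. The drop from gamma-delta T cells to B cells and the drop from B cells to plasmacytoid dendritic cells (221 CPM) each exceeded the spread. In the 4 myeloid classes Smad7 was lower than in the T and NK cells (log2 fold change -2.10, SE 0.10, edgeR adjusted p = 9.3e-27). Ski, the nuclear corepressor, had -1.15 in the same contrast (SE 0.09), and Smad3 -1.95 (SE 0.29). The Smad3 value ran from -4.75 to -1.60 over 13 alternatives and includes cDC1 and cDC2, which held 4 and 3 Smad3 UMIs. Monocytes (8.65 CPM) and macrophages (5.53 CPM) were nearer to CD8 T cells (10.6 CPM). Within the T and NK classes, Smad7 varied by library: it was 275 CPM in CD8 T cells of BrM 2 and 680.5 CPM in those of BrM 1.

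Neutrophils had the highest levels of Skil and Tgif1, while their Smad7 level was 167 CPM, below all T, NK and B cell classes. Their Skil level was 571, 763 and 692 CPM in BrM 2, BrM 3 and MFP 3, and their Tgif1 level 489.8, 600.4 and 829.9 CPM. Every neutrophil library was above every library of the other 13 classes in both genes. Against monocytes, 7 of the 10 genes were higher in neutrophils, among them Skil (log2 fold change 1.71, SE 0.16), Ski (1.63, SE 0.18) and Smad3 (2.40, SE 0.38), while Tgfb1 (-0.66, SE 0.16) and Itgav (-1.08, SE 0.35) were lower. The contrast called 45.7% of all genes. Of 3178864 neutrophil UMIs 2472647 came from MFP 3, which also held 101 of 108 neutrophil Smad3 UMIs. Without MFP 3 the members called were 6 in place of 9 and all genes called 2920 in place of 5124; Smad3 was then at 0.79 (edgeR adjusted p = 0.520), Tgfbr2 at 0.55 and Itgav at -0.97, and none of these 3 passed.

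The genes closest to Skil over the class means were Nfkbia, the inhibitor of NF-kB (r = 0.922), Tbk1 (0.915) and Optn (0.886). Those closest to Smad7 were Srpk2 (0.966), Ets1 (0.946) and Zdhhc20 (0.942), and those closest to Tgif1 were Slc25a37 (0.912), Ppp1r15a (0.904) and Ets2 (0.860).

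Microglia, the brain's own macrophages, were gated separately and set against tumour macrophages. They numbered 349 cells in BrM 2 and 223 in BrM 3, and 1 cell was found in the 3 MFP libraries. Their own marker list summed to 3194 to 3921 CPM, against 213 to 580.1 CPM in macrophages. Some of those markers are known to depend on TGF-beta, so the gate itself is not independent of the pathway.

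In microglia 4 of the 10 genes were higher than in macrophages: the type II receptor gene, the transducer Smad3 and the inhibitors Smad7 and Ski. Tgfbr2 was at 248 and 251 CPM in the 2 microglia sums, above all 6 macrophage libraries (27.5 to 111 CPM; log2 fold change 1.45, SE 0.17, edgeR adjusted p = 2.6e-10). Smad7 was at 197 and 209 CPM against 61.9 to 128 CPM (1.42, SE 0.21, edgeR adjusted p = 2.3e-07). Smad3 was at 17.97 and 10.99 CPM against 0 to 8.45 CPM (1.24, SE 0.30, edgeR adjusted p = 0.00075), and Ski at 118 and 122 CPM against 27.5 to 97.6 CPM (0.67, SE 0.16, edgeR adjusted p = 0.00097). Both microglia libraries lay above all macrophage libraries for these 4 genes and for Skil and Tgif1, 6 of 10, beside 14.1% of all genes.

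The contrast called 26% of all genes. Tgfb1 differed by -0.02 (SE 0.17), Itgav by -0.02 (SE 0.24) and Tgfbr1 by 0.34 (SE 0.21), and these did not pass, nor did Skil (0.43, SE 0.18, edgeR adjusted p = 0.0758) and Tgif1 (0.58, SE 0.25, edgeR adjusted p = 0.0775). The same 4 calls were made within the BrM libraries alone, and without BrM 2 the number was 3, Smad3 being lost.

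Of the 43 other pathway genes tested, 11 were higher in microglia and 10 lower. Bmpr1a, a type I receptor gene for bone morphogenetic proteins, was at 17.2 and 18.1 CPM in microglia and at most 1.2 CPM in macrophages (4.37, SE 0.38). Itgb3, the beta-3 partner of alpha-v, was higher as well (3.66, SE 0.39). Tgfbi, a secreted TGF-beta-induced matrix protein, was at 154 and 187 CPM in microglia and 1449 to 2146 CPM in macrophages (-4.37, SE 0.93).

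**Figure D2:**
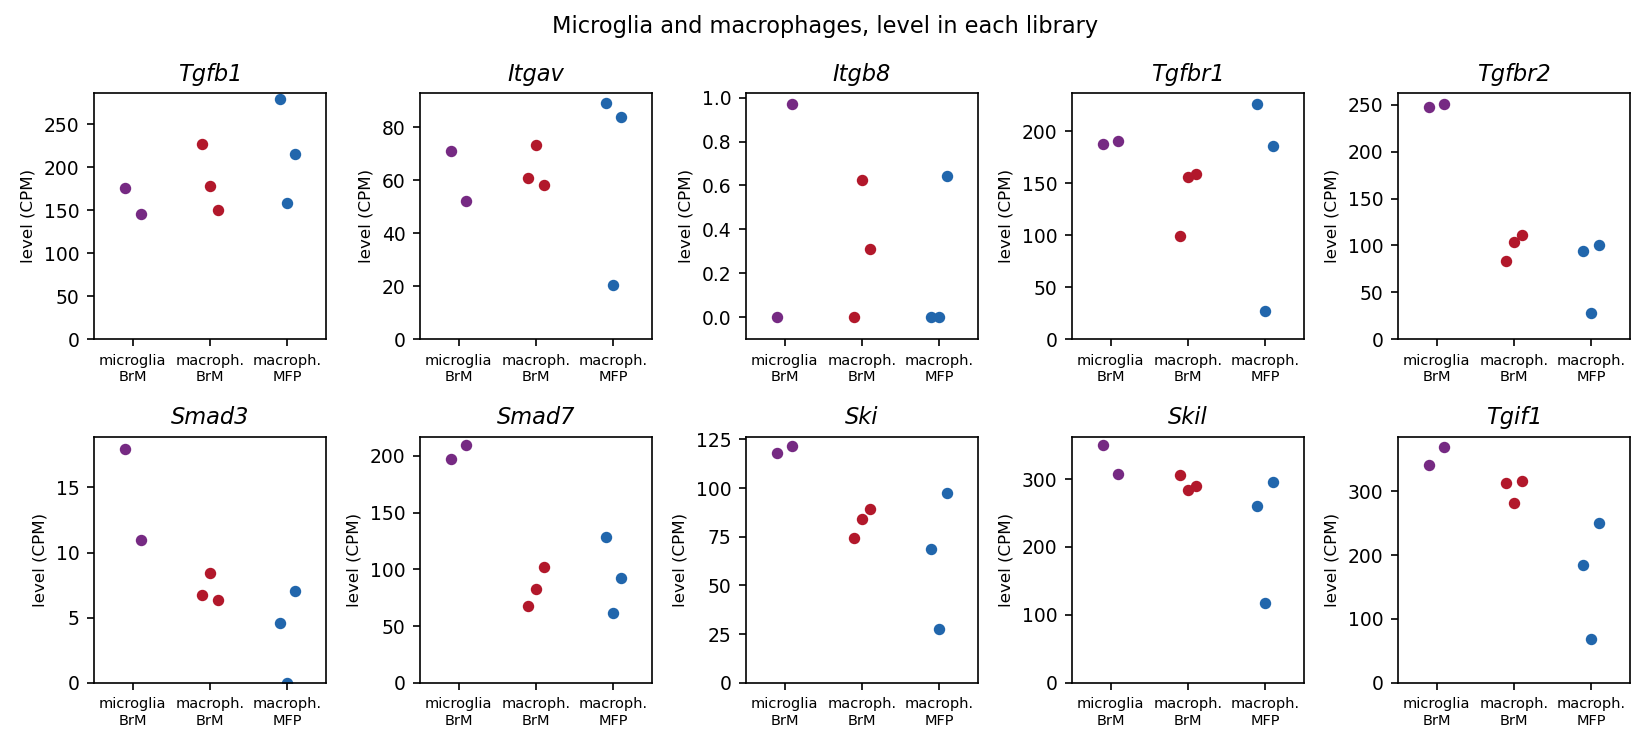
Level of each gene (CPM, linear axes) in microglia of BrM 2 and BrM 3 (purple), macrophages of the 3 BrM libraries (red) and macrophages of the 3 MFP libraries (blue), 1 point per library. Microglia lie above all macrophage libraries for Tgfbr2, Smad3, Smad7, Ski, Skil and Tgif1, of which the first 4 passed the edgeR test. The low MFP point in most panels is MFP 2, with 26 macrophages.

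Between macrophages and monocytes, 10 of the 43 other pathway genes tested were higher in macrophages and 11 lower, beside 35.6% of all genes called in either direction. Pmepa1, a TGF-beta-induced inhibitor of the receptor signal, was at 96.2 to 457 CPM in macrophages and 19.9 to 55.2 CPM in monocytes (log2 fold change 3.02, SE 0.25). Tgfb3 had 482 UMIs in BrM macrophages, at 9.83 to 15.8 CPM, and 973 in MFP 3 macrophages, at 26.1 CPM, while MFP 1 and MFP 2 had 0 (2.54, SE 0.49). Monocytes had 10 Tgfb3 UMIs in BrM and 6 in MFP. Thbs1, which encodes the latent TGF-beta activator thrombospondin-1, was lower in macrophages (-2.29, SE 0.42), at 80.1 to 369 CPM against 436 to 1036 CPM in monocytes.

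In the remaining contrasts the counts of other pathway genes called are given beside the share of all genes called. Of the 43 tested per contrast, 16 were higher and 2 lower in gamma-delta than in CD8 T cells (32% of all genes), led by the endoglin gene Eng (log2 fold change 3.37), Bmpr1a (3.32) and Itgb5 (3.02). In CD8 T against NK cells 8 were higher and 14 lower (40.3% of all genes), with Id3 (2.54), Lrrc32 (2.24) and Itgae (2.20) the largest. In B against CD4 conventional T cells 7 were higher and 18 lower (43.7% of all genes), with Tgfbr3 (-4.73), Itgae (-4.60) and Ldlrad4 (-4.14) the largest.

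Neutrophils had 12 of the 43 genes higher and 13 lower than monocytes (45.7% of all genes), with Bmpr1a (4.79), Eng (-4.57) and Itgb3 (3.90) the largest changes. Mature dendritic cells had 7 higher and 6 lower than cDC2 (39.6% of all genes), with Dab2 (-4.40), Id2 (3.33) and Itgae (-3.28) leading. In cDC1 against cDC2, 2 were higher and 8 lower (16.6% of all genes), with Dab2 (-4.38), Id3 (-3.14) and Eng (-2.52) leading. The 4 myeloid classes had 20 higher and 15 lower than the T and NK cells (71.6% of all genes), led by Acvrl1 (6.07), Tgfbi (5.26) and the protease gene Mmp14 (5.16).

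The class means of the ligand, receptor, transducer and Ski genes also had close matches among all genes. For Tgfb1 these were Ugcg (r = 0.846), Eif3j1 (0.827) and Nt5dc3 (0.805). For Tgfbr1 they were Rragc (0.927), Atp6v1c1 (0.914) and Slc37a2 (0.912), and for Tgfbr2 they were Ints6l (0.941), Utp4 (0.894) and Usp36 (0.878). For Smad3 they were Tbpl1 (0.914), Mgat5 (0.884) and B4galt1 (0.880), and for Ski they were Dgkz (0.938), Tpst2 (0.911) and Spata13 (0.906).

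Between the tumour sites, 2 of the 72 gene-by-class pairs tested in 8 classes passed the edgeR test, both in Treg and both lower in BrM. They were Itgb8 and Skil. Of all genes tested, 0% to 5.56% passed per class, with the highest share in Treg. None of the 10 passed in the other 7 classes. Without BrM 1 the number of pairs called was 15, of which 6 were in Treg and 4 in CD4 conventional T cells. In those fits 1396 of all 6941 genes were called in Treg and 776 of 7405 in CD4 conventional T cells. The number of pairs was 0 without BrM 2, without BrM 3 or without MFP 2 and 1 without MFP 3. The plot of levels by library shows the 2 sites side by side for 6 of the genes.

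**Figure D3:**
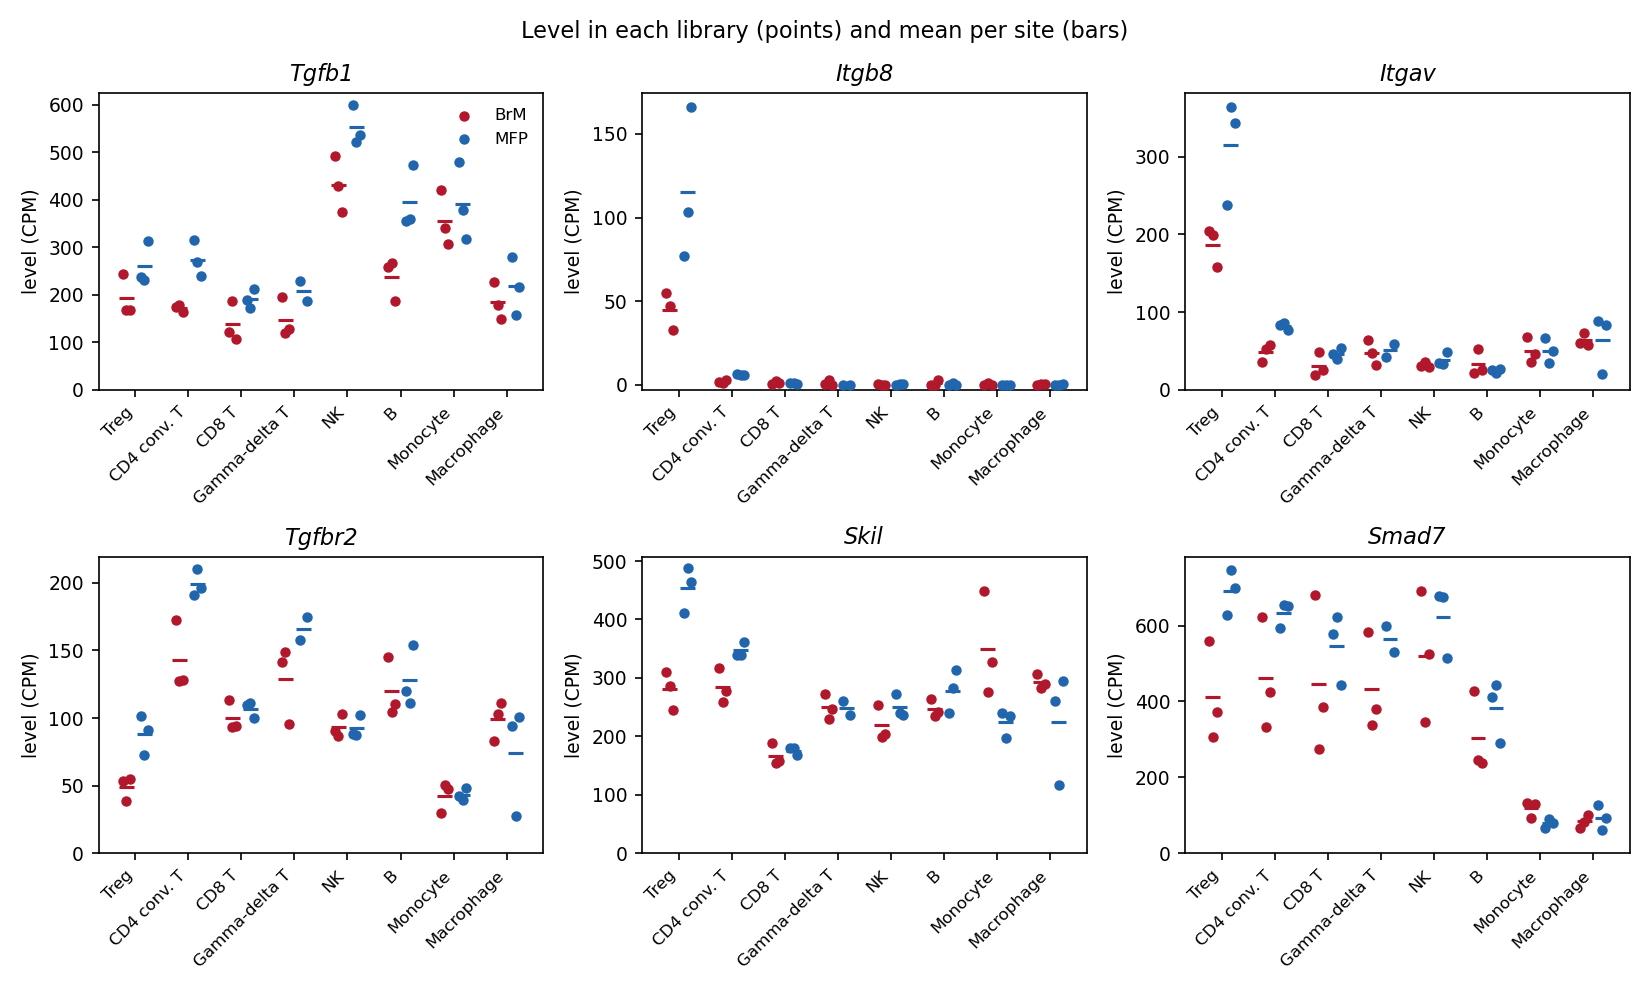
Level (CPM, linear axes) of 6 genes in each library, with BrM in red and MFP in blue, for the 8 classes compared between sites. Points are libraries and bars are site means. In Treg every MFP library is above every BrM library for Itgb8, Itgav, Tgfbr2, Skil and Smad7, and the sites overlap for Tgfb1.

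Itgb8 in the Treg of BrM 1, 2 and 3 was at 55.0, 47.1 and 33.0 CPM. In MFP 1, 2 and 3 it was at 77.0, 103 and 166 CPM. The sites did not overlap, and MFP 3 was the highest library (log2 fold change -1.16, SE 0.26, edgeR adjusted p = 0.0249). Skil (chr3:31095058-31122577, plus strand) was at 310.3, 286 and 246 CPM in BrM and 412, 488 and 464 CPM in MFP. Again every BrM library was below every MFP library (log2 fold change -0.60, SE 0.17, edgeR adjusted p = 0.0428). In Treg 376 of 6758 genes (5.56%) were called, 249 of them higher in BrM, so the 2 calls among 10 are few and stand beside a larger set of changes.

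All 10 genes had a negative log2 fold change in Treg, with a median of -0.65 beside -0.01 over all genes tested. For 9 of 10 every MFP library was above every BrM library, which held for 19.2% of all genes tested. Besides the 2 called genes, the values were -0.65 for Itgav (edgeR adjusted p = 0.0544), -0.76 for Tgfbr2 (adjusted p = 0.0517), -0.65 for Smad7 (adjusted p = 0.0557), -0.69 for Tgfbr1 and -0.51 for Tgif1 (adjusted p = 0.0946 for both), -1.03 for Smad3 (adjusted p = 0.124) and -0.35 for Ski (adjusted p = 0.262). These did not pass. Tgfb1 was at 244, 168 and 169 CPM in BrM and 237, 230.2 and 312 CPM in MFP, so the sites overlapped (-0.31, SE 0.19, edgeR adjusted p = 0.312).

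Itgav in Treg was at 205, 199 and 158 CPM in BrM and 238, 364 and 344 CPM in MFP. Tgfbr2 was at 53.5, 39.0 and 55.0 CPM in BrM and 101, 72.5 and 91.3 CPM in MFP. Smad7 was at 560.3, 307 and 372 CPM in BrM and 627, 746 and 699 CPM in MFP. In each of these 3 genes the lowest MFP library exceeded the highest BrM library, for Smad7 by little.

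Of the 50 other pathway genes, 22 were tested in Treg, and 5 were lower in BrM while 0 were higher. Furin, the protease that cuts the TGF-beta precursor, was at 77.8, 47.1 and 38.5 CPM in BrM and 129, 103 and 111 CPM in MFP (log2 fold change -0.91, SE 0.23, edgeR adjusted p = 0.0337). Sik1, a kinase that helps to degrade the type I receptor, had a log2 fold change of -0.94 (SE 0.22), and Itgae, the TGF-beta-induced CD103 integrin chain, one of -0.72 (SE 0.17). Id2 fell by 0.59 (SE 0.16) and Junb fell by 0.61 (SE 0.15). All genes called in Treg numbered 1396 without BrM 1, 20 without BrM 2, 38 without BrM 3, 242 without MFP 1, 8 without MFP 2 and 12 without MFP 3. Of the 5 genes, Junb is also an immediate-early gene. Some such genes were lower in BrM Treg too, with Fos at -1.45 (edgeR adjusted p = 0.00128), Fosb at -1.63 (adjusted p = 0.00413) and Jun at -0.999 (adjusted p = 0.0261). Egr1 at -0.96 (adjusted p = 0.0571) and Ier2 at -0.40 (adjusted p = 0.156) did not pass. Their part in the result was not tested.

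The Treg sums also differed in ways other than pathway genes. The 3 Treg markers summed to 1850 to 2190 CPM in BrM and 2338 to 2829 CPM in MFP without overlap, and no library had a Treg marker at 0. Of these 3, Foxp3 had a log2 fold change of -0.52 (edgeR adjusted p = 0.0770), Ikzf2 one of -0.37 (adjusted p = 0.139) and Il2ra one of -0.02 (adjusted p = 0.969). The 5 ILC2 markers, 2 of them at 0 in every library, summed to 317 to 339.9 CPM in BrM and 567 to 954 CPM in MFP, and the CD45 gene Ptprc was at 499 to 812 CPM in BrM and 1059 to 1085 CPM in MFP, both without overlap. Cell cycle genes had positive values that did not pass, with Mki67 at 0.88, Stmn1 at 1.19 and Birc5 at 1.31. The 4 T cell markers summed to 2376 to 3438 CPM in BrM and 3423 to 3534 CPM in MFP. The 9 macrophage markers summed to 19.0 to 450.1 CPM in BrM Treg, with 2 to 3 of them at 0, and to 6.98 to 476 CPM in MFP Treg, with 0 to 7 at 0, and the sites overlapped. Cells above the 95th percentile of UMIs of their library supplied 40.7%, 23.8% and 38.6% of the Treg UMIs in the BrM libraries, against 16.3%, 10.9% and 0% in the MFP libraries. That cut was set over all kept cells of a library, so its number of UMIs can differ between libraries. Macrophages made up 0.681%, 28.8% and 25.8% of kept cells in BrM 1, 2 and 3 and 0.727%, 0.306% and 38.6% in MFP 1, 2 and 3. The part of these values in the result was not tested beyond the alternatives given next.

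Without the cells above that percentile, Itgb8 was at -1.06 (SE 0.25, edgeR adjusted p = 0.311) and Skil at -0.40 (adjusted p = 0.484), and 4 genes were called in Treg in all. Neither gene passed without BrM 2, without BrM 3, without MFP 2 or without MFP 3, and Skil did not pass without MFP 1. The log2 fold changes stayed negative in each of these fits, between -1.37 and -0.89 for Itgb8 and between -0.64 and -0.52 for Skil when 1 library was left out. Within the 3 lower-total libraries (BrM 1 against MFP 1 and MFP 2) Itgb8 was at -0.68 (edgeR adjusted p = 0.511), and within the 3 higher-total ones (BrM 2 and BrM 3 against MFP 3) at -1.78 (edgeR adjusted p = 2e-06). Both of these fits assume that the site with 1 library varies like the other.

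**Figure D4:**
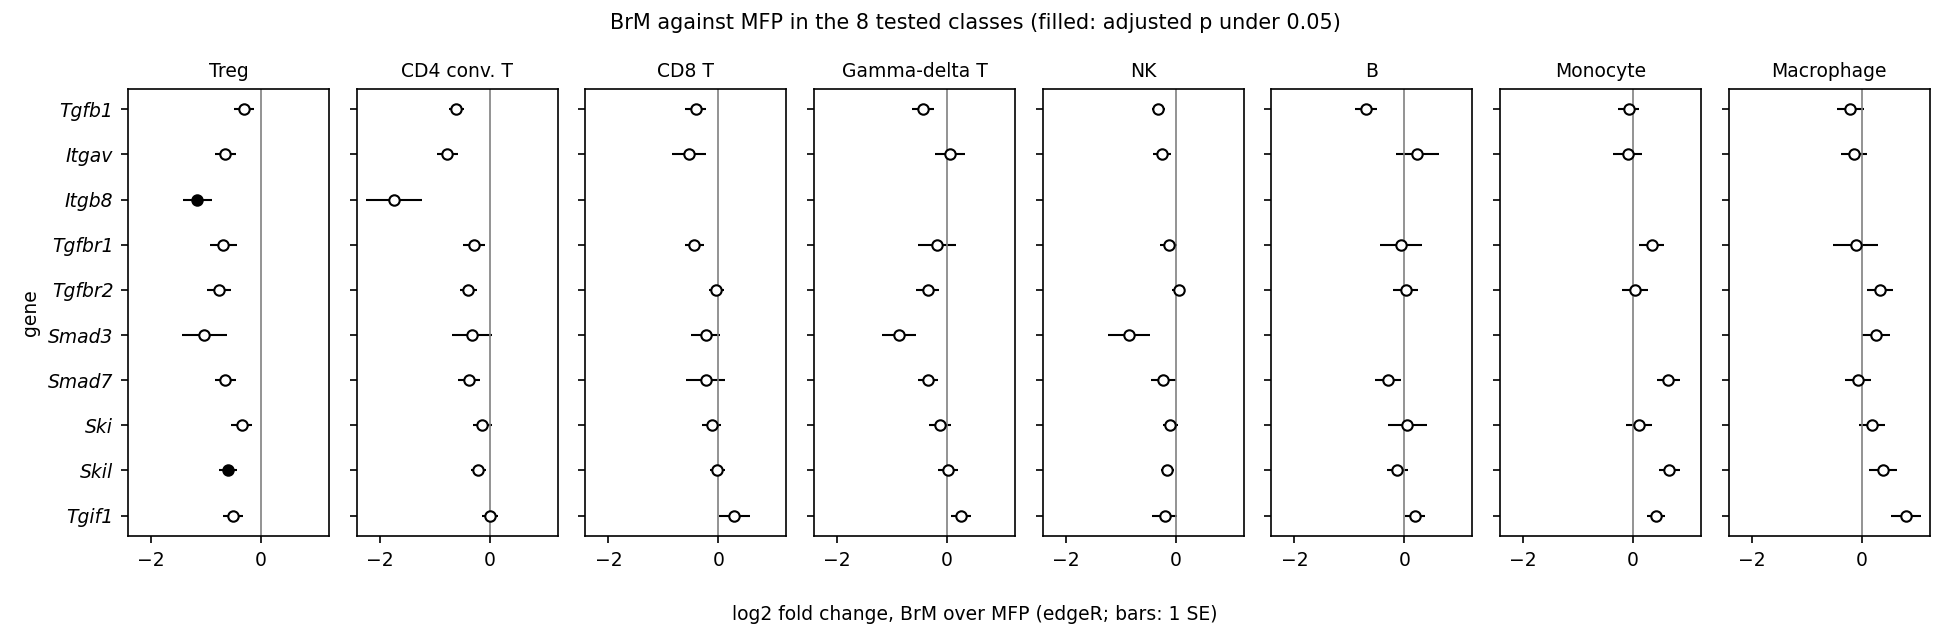
Log2 fold change, BrM over MFP, with 1 SE (horizontal bars) for each gene in the 8 classes compared between sites. Filled points passed the edgeR test, which only Itgb8 and Skil in Treg did. Genes too low to be tested in a class have no point. All 10 Treg points lie left of 0, and monocyte and macrophage points lie on both sides.

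In CD4 conventional T cells 9 of the 10 genes had a negative log2 fold change and 1 a positive one, and 0 passed. Tgfb1 was at 175, 179 and 164 CPM in BrM and 315, 269 and 239 CPM in MFP (log2 fold change -0.61, SE 0.14, edgeR adjusted p = 0.0811), and Itgav at 35.7, 52.1 and 58.3 CPM in BrM and 83.2, 85.5 and 76.9 CPM in MFP (-0.77, SE 0.19, edgeR adjusted p = 0.0902). For 6 of 10 genes every MFP library was above every BrM library, which held for 12.9% of all genes tested. The test called 0 of the 10 and 35 of 8696 genes (0.402%), 4 of the 10 genes had an unadjusted p under 0.05, and the DESeq2 Wald test called 1. Itgb8 had 13 UMIs in BrM and 42 in MFP (-1.75, SE 0.51, edgeR adjusted p = 0.126). Sik1 was the 1 other pathway gene called, and it was lower in BrM (-0.83, SE 0.16, edgeR adjusted p = 0.0415). All genes called numbered 776 without BrM 1, 6 without BrM 2, 54 without BrM 3, 5 without MFP 1, 3 without MFP 2 and 60 without MFP 3. In the CD4 sums the 5 ILC2 markers were at 120.2 to 131 CPM in BrM, with 0 to 1 at 0, and 152 to 514 CPM in MFP, with 0 to 1 at 0. Ptprc was at 738.5 to 856 CPM in BrM and 906 to 1111 CPM in MFP. Neither overlapped, and their part in the result was not tested.

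Tgfb1 had a lower fitted level in BrM in all 8 classes, and it passed in none of them by edgeR. The sites did not overlap in CD4 conventional T, NK and B cells. In B cells it was at 258, 266 and 186 CPM in BrM and 356, 359 and 472 CPM in MFP (log2 fold change -0.70, SE 0.20, edgeR adjusted p = 0.591). In NK cells the log2 fold change was -0.32 (SE 0.12, edgeR adjusted p = 0.640). It was -0.41 in CD8 T cells (SE 0.19), -0.44 in gamma-delta T cells (SE 0.21), -0.21 in macrophages (SE 0.24) and -0.08 in monocytes (SE 0.18), with overlapping sites in CD8 T cells, gamma-delta T cells, macrophages and monocytes. The 8 classes come from the same libraries and are not independent, and the sign changed under 5 alternatives in monocytes and under 1 in Treg.

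In CD8 T, NK and B cells edgeR called 0 genes of any kind (0% of 10899, 10552 and 5179), with 606, 814 and 393 at an unadjusted p under 0.05. The DESeq2 Wald test called 6, 30 and 3 genes there. Without BrM 1 edgeR called 514 genes in NK cells and 522 in B cells, with 1 and 2 of the 10 among them, and still 0 in CD8 T cells, where 562 were called within the 3 lower-total libraries. In gamma-delta T cells (3 BrM and 2 MFP libraries) 0.265% of 6804 genes were called, 18 in all, and 164 without BrM 1. Of the 10 pathway genes, 1 in each of CD8 T, NK and B cells and 2 in gamma-delta T cells had an unadjusted p under 0.05, and DESeq2 called 0 of them in these 4 classes.

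Monocytes and macrophages had positive values for several inhibitors. In monocytes Skil was at 448, 275 and 326.5 CPM in BrM and 239, 198 and 234 CPM in MFP, without overlap (log2 fold change 0.66, SE 0.19, edgeR adjusted p = 0.123). Smad7 was at 134, 92.3 and 129.8 CPM in BrM and 67.3, 90.6 and 80.1 CPM in MFP (0.64, SE 0.21, edgeR adjusted p = 0.187), a gap that is small between BrM 2 and MFP 2. In macrophages Tgif1 was at 313, 281 and 316 CPM in BrM and 185, 68.7 and 251 CPM in MFP (0.80, SE 0.27, edgeR adjusted p = 0.0784). None of the 10 genes passed by edgeR or DESeq2 in either class, with 3 and 1 at an unadjusted p under 0.05, where 0.799% and 5.27% of all genes were called.

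Among the other pathway genes, 2 of 30 tested rose in BrM monocytes and 0 fell. Itgb5, the beta-5 partner of alpha-v, was at 125, 121 and 88.5 CPM in BrM and 67.3, 28.3 and 52.6 CPM in MFP (log2 fold change 1.11, SE 0.23, edgeR adjusted p = 0.0367). Tgfbi was at 2157, 1968 and 1730.5 CPM in BrM and 1132, 1166 and 1279 CPM in MFP (0.76, SE 0.13, edgeR adjusted p = 0.0154). In both genes the sites did not overlap. The 51 genes called in monocytes numbered 153 without BrM 1, 5 without BrM 2, 6 without BrM 3, 17 without MFP 1 and 15 without MFP 3. The 7 mature dendritic cell markers summed to 19.4 to 72.2 CPM in BrM monocytes, with 0 to 2 at 0, and to 0 to 11.1 CPM in MFP monocytes, with 1 to 7 at 0. The 7 cDC1 markers summed to 206 to 274 CPM in BrM, with 1 to 3 at 0, and to 299 to 463 CPM in MFP, with 1 to 3 at 0. Neither list overlapped between sites, and their part in the monocyte values was not tested.

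In macrophages 2 of 41 rose in BrM and 2 fell. Thbs1 rose by 1.13 (SE 0.32, edgeR adjusted p = 0.0472) and Cdkn1a, a cell cycle inhibitor induced by TGF-beta in many cells, by 1.27 (SE 0.33, edgeR adjusted p = 0.0334). Furin fell by 0.85 (SE 0.24), and Zeb1, a transcriptional repressor, fell by 0.88 (SE 0.27). The MFP 2 macrophage sum rests on 26 cells, and those of BrM 1 and MFP 1 on 54 and 58. The 594 genes called in macrophages numbered 1145 without BrM 1, 1137 without MFP 1 and 728 without MFP 2. They numbered 1 without BrM 2, 1 without BrM 3 and 0 without MFP 3. All 4 calls were thus lost without MFP 3, and at most 1 could remain without BrM 2 or without BrM 3. The DESeq2 Wald test called 26 genes. In the macrophage sums the 7 mature dendritic cell markers were at 24.9 to 38.3 CPM in BrM and 0 to 16.9 CPM in MFP. The 7 plasmacytoid dendritic cell markers were at 23.0 to 27.0 CPM in BrM and 6.87 to 9.15 CPM in MFP. Of either list 0 to 3 markers were at 0 in BrM and 0 to 7 in MFP. Both lists were also counted in gated microglia, at 60.5 to 67.2 and 223 to 250 CPM. The 8 microglia markers summed to 356, 580 and 476 CPM in BrM macrophages. In MFP macrophages they summed to 213, 234 and 379 CPM, so the sites overlapped. Cells with fewer than 6 microglia markers were not removed from the macrophage gate. The part of these 3 lists in the result was not tested.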

How the data were processed

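The deposited matrices hold raw UMI counts, without normalization; the authors made them with Cell Ranger 4.0 on mm10, per the submitters' processing notes, and the annotation release is not given in the sources used here. Barcodes under 500 UMIs, under 200 detected genes or above 10% mitochondrial UMIs were dropped. Each cell was put in a class by marker UMIs; 958 cells with markers of more than 1 lineage were removed, which served as the doublet treatment, and no doublet caller was run. The classes are rebuilt here and are not the authors' annotation.

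Counts were summed per library and class (at least 20 cells). BrM and MFP were compared in 8 classes with edgeR 4.0.16 (R 4.3.3; TMM, filterByExpr, robust quasi-likelihood test), gamma-delta T cells with 3 against 2 libraries. Classes were compared in 1 fit with library as a term. Benjamini-Hochberg adjustment ran over all genes tested, with a threshold of 0.05. DESeq2 1.42.0 was an alternative. The scripts were tested on simulated data. Neighbouring classes were said to differ beyond their spread where the means differed by more than the larger SD. Where UMIs are few, precision covers counting error only.

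The members, gene lists and tests were chosen with earlier results of these data known. Named are the 10 members, the other pathway genes called between sites, for each class contrast the 3 other pathway genes with the largest called change, and the 3 genes most like a member. Alternatives were other normalizations and tests, no count filter, a stricter gate, no cells above the 95th UMI percentile, each library left out, a replicate block, a term for the libraries' UMI total, and fits within those kinds or sites.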

Additional observations from a re-analysis of the deposited data

How the results depend on the processing

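The 2 gene-by-class pairs called between BrM and MFP were 5 with the DESeq2 Wald test, 8 with no filter on low counts, 5 with a stricter gate, 4 with the kind of library (lower or higher UMI total) as a term, 7 within the lower and 7 within the higher libraries, 0 without cells above the 95th percentile of UMIs, and 0 to 15 when 1 library was left out. In Treg the deviations of libraries with the same replicate number correlated at -0.05, -0.04 and 0.11. They correlated at 0.35, -0.39 and 0.50 in CD8 T cells and at 0.50, -0.29 and 0.27 in NK cells. In CD4 conventional T cells, B cells, monocytes and macrophages the values ran from -0.11 to 0.17. These values do not settle whether the numbers pair the libraries. With the replicate block 0 pairs were called and Itgb8 in Treg was at -1.11. Genes called in Treg numbered 17 with the block, against 376. Tgfb1 changed sign in monocytes with the library kind as a term (0.048), within the lower (0.0014) and higher (0.11) libraries, and ranged from -0.25 to 0.13 when 1 library was left out; in Treg it was 0.086 within the lower libraries. Skil in the myeloid against T and NK contrast was -0.17 in the MFP libraries alone. The cause was not tested. The 48 calls between classes ranged from 39 to 51, and the 4 of microglia from 3 to 6. Itgb8 in mature dendritic cells against cDC2 gave no value within MFP. Depth limits Itgb8 and Smad3, which were too low to test in 6 and 2 of the 8 classes.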
